A study of Homo sapiens with 12 samples.

Results

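The CNC (cap'n'collar), small MAF and BACH genes are 9 genes of one basic leucine zipper network, *NFE2*, *NFE2L1*, *NFE2L2*, *NFE2L3*, *MAFF*, *MAFG*, *MAFK*, *BACH1* and *BACH2*, and all 9 were found among the 58288 genes counted. They were chosen by name, with *NFE2* known beforehand to be among the strongest decreases of TNF-α-treated promyelocytes. RNA of the HL-60/S4 line, a fast-differentiating derivative of the myeloid leukemia line HL-60, was sequenced after ribosomal RNA depletion in 12 libraries, 3 in each of 4 groups. Promyelocytes were undifferentiated cells, and granulocytes were the same line after 4 days in 1 µM all-trans retinoic acid (ATRA). Each cell type received TNF-α at 16 ng/mL, or an equal volume of water as vehicle, for 2 h in medium with added calcium, and all cells were at 8 passages. As a model the series is a single leukemia line rather than blood granulocytes, and the 3 libraries of a group came from flasks treated separately, so p-values measure the spread between flasks of that line. Each cell type was a separate experiment, so levels in the cell types are given side by side and cell type cannot be told apart from experiment.

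CNC activators and BACH repressors do not bind DNA well alone. Each pairs with a small MAF protein, which has no activation domain of its own, and the pairs compete for related motifs, the antioxidant response element (ARE) and the MAF recognition element. *NFE2* encodes the p45 subunit of NF-E2, best known in megakaryocytes and erythroid cells and also expressed in myeloid cells. *NFE2L2* encodes NRF2, which is held at a low level by KEAP1 and drives antioxidant genes when released, whereas BACH1 represses many of the same genes and is released from DNA by heme.

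Libraries held 22829189 to 31895061 read pairs on genes (median 28233190), and 3 counts corresponded to 0.0945 to 0.136 CPM, the read pairs of a gene scaled to library size with TMM factors. This floor covers counting error only. The labelled cell types matched their markers. The summed CPM of 6 promyelocyte markers (*MPO*, *ELANE*, *AZU1*, *PRTN3*, *CTSG* and *MS4A3*) was 7520 to 8360 in vehicle promyelocytes and 2250 to 2460 in vehicle granulocytes, and that of 9 granulocyte markers, *CD38* among them, was 163 to 170 and 5150 to 5430. *TNFAIP3*, *NFKBIA* and *CXCL8*, direct targets of TNF-α signaling, increased in both cell types, with log2 fold changes of 3.60 to 3.91 in promyelocytes and 4.92 to 5.51 in granulocytes.

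Most of the network responded to TNF-α in granulocytes. Of the 9 genes, 7 increased, *NFE2* alone decreased and *NFE2L1* was not called (edgeR quasi-likelihood test, adjusted p under 0.05). Across all 16944 genes tested in granulocytes, 49.2% were called, 24.4% higher and 24.8% lower, so a call as such was common, and the size of the changes is given for each gene. TNF-α and vehicle libraries did not overlap for 8 of the 9 genes, against 55.1% of all genes tested (28.4% higher and 26.7% lower). In promyelocytes, the contrast that led to the choice of these genes and that is described here without a test, TNF-α libraries lay wholly above vehicle libraries for 4 genes (*NFE2L2*, *NFE2L3*, *MAFF* and *MAFG*) and wholly below for 3 (*NFE2*, *NFE2L1* and *MAFK*). Of the 16250 genes tested in promyelocytes, 14.8% were called, 8.15% higher and 6.65% lower, whereas 13.7% lay wholly above and 17.1% wholly below.

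**Figure D1:**
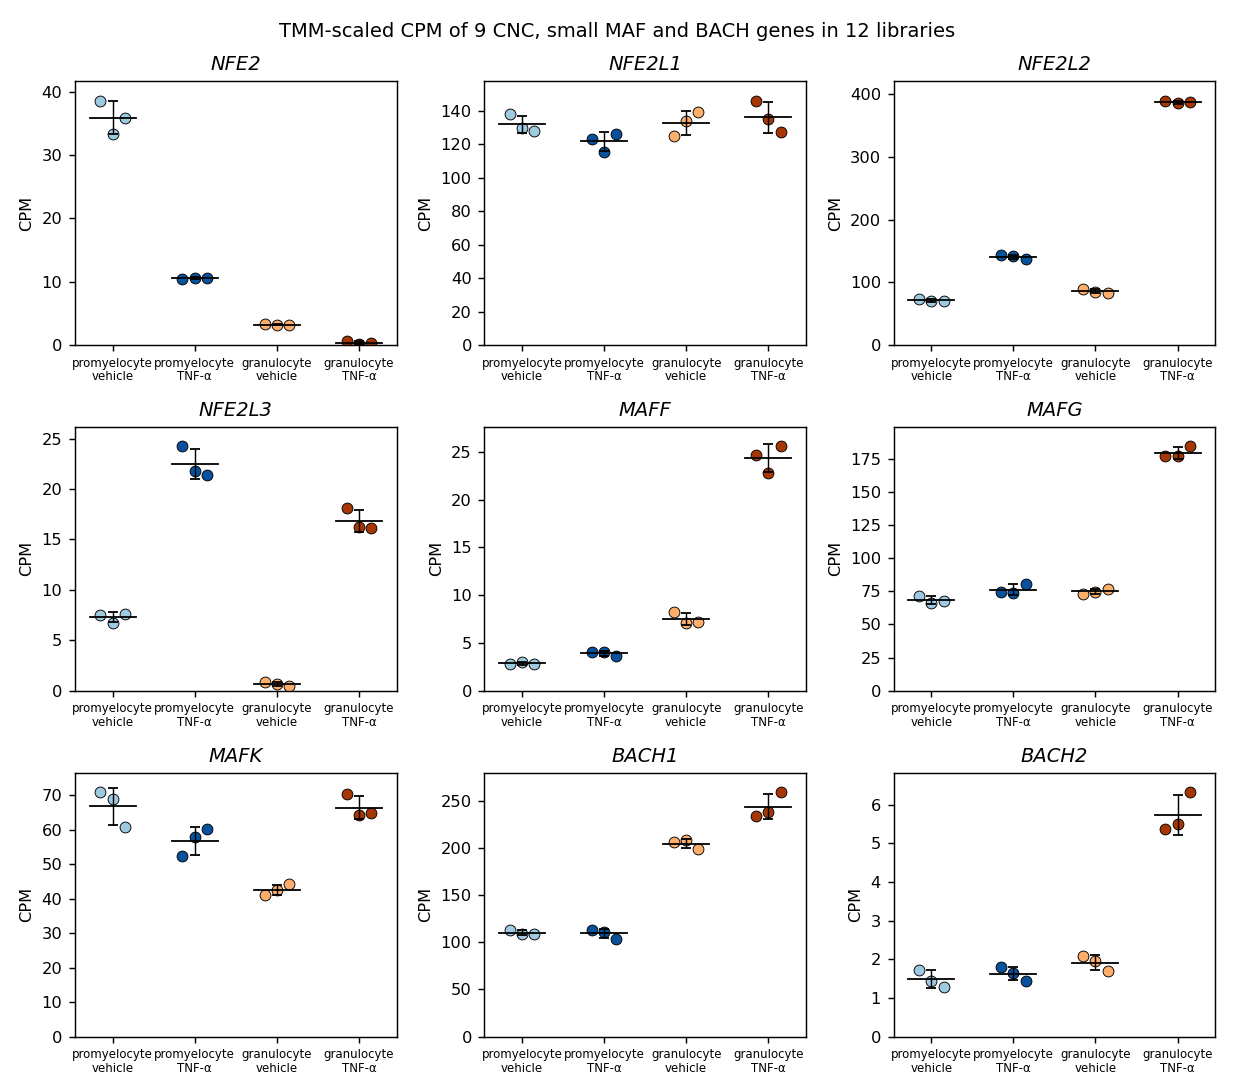
TMM-scaled CPM of each of the 9 genes, one panel per gene, with 1 point per library, the mean of 3 libraries as a horizontal line and the SD as error bars. The 4 groups stand in the same order in every panel, each vertical axis starts at 0 and its range differs between genes. *NFE2* stands at a mean of 35.9 CPM in vehicle promyelocytes and 0.358 CPM in TNF-α granulocytes, whereas *NFE2L2* reaches its highest level, 388 CPM, in TNF-α granulocytes.

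Among the activators, *NFE2* (ENSG00000123405.13, hg38 chr12:54292111-54301121, minus strand) was the gene that chose the set. Its level was 38.6, 33.3 and 35.8 CPM in the vehicle promyelocyte libraries and 10.4, 10.6 and 10.7 CPM with TNF-α. The 3 TNF-α libraries were nearly alike and lay well below every vehicle library. The promyelocyte log2 fold change was -1.74 ± 0.08 (SE), a 3.35-fold lower level, and ranked 12 from the lowest among 16250 genes. In bulk RNA, fewer cells expressing a gene and less RNA per cell cannot be told apart.

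*NFE2* was already low in granulocytes before TNF-α. Vehicle granulocyte libraries had 3.31, 3.21 and 3.12 CPM, and TNF-α granulocyte libraries had 0.587, 0.215 and 0.271 CPM, from 13, 6 and 6 read pairs against 86, 97 and 93 in the vehicle libraries. *NFE2* decreased 9.21-fold in granulocytes (log2 fold change -3.20 ± 0.30, edgeR adjusted p = 1.78e-11), with no overlap between the groups. The granulocyte log2 fold change minus that of promyelocytes was -1.43 ± 0.28, and it moved to -1.95 without the first TNF-α granulocyte library. The low read pair counts of TNF-α granulocytes make this the least precise granulocyte fold change of the 9 genes.

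*NFE2L2* (ENSG00000116044.15, chr2:177227595-177392697, minus strand), the NRF2 gene, moved in the opposite direction to *NFE2* in both cell types. Promyelocyte libraries had 73.8, 70.3 and 69.5 CPM with vehicle and 143, 142 and 137 CPM with TNF-α, a log2 fold change of 1.01 ± 0.06. Granulocyte libraries had 89.7, 84.8 and 83.2 CPM with vehicle and 390, 385 and 387 CPM with TNF-α. The granulocyte log2 fold change was 2.16 ± 0.05, or 4.47-fold (edgeR adjusted p = 8e-30), and the groups stood far apart with little spread within either. The difference between the cell types was 1.19 ± 0.07 on the log2 scale. The counted exons of *NFE2L2* share 1054 bases, 17.6% of their length, with ENSG00000213963 on the same strand, and read pairs there were not counted for either gene.

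*NFE2L3* (ENSG00000050344.8, chr7:26152240-26187125, plus strand) encodes NRF3, a membrane-anchored relative of NRF1. It had the highest granulocyte fold change of the 9 genes. Promyelocyte libraries had 7.51, 6.77 and 7.63 CPM with vehicle and 24.2, 21.8 and 21.4 CPM with TNF-α, a log2 fold change of 1.64 ± 0.10. Granulocyte libraries had 0.846, 0.662 and 0.469 CPM with vehicle and 18.1, 16.2 and 16.1 CPM with TNF-α. From a level close to the floor, *NFE2L3* increased 25.4-fold in granulocytes (log2 fold change 4.66 ± 0.16, edgeR adjusted p = 1.73e-24). The granulocyte response exceeded that of promyelocytes by 3.06 ± 0.20 on the log2 scale, and yet TNF-α granulocytes (16.8 ± 1.10 CPM, SD, n = 3) did not reach the level of TNF-α promyelocytes (22.5 ± 1.52 CPM).

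*NFE2L1* (ENSG00000082641.15, chr17:48048329-48061487, plus strand) encodes NRF1, which is held in the endoplasmic reticulum membrane and drives proteasome genes. It had the smallest granulocyte change of the 9 genes, whereas in promyelocytes *BACH1* changed less. Promyelocyte libraries had 138, 130 and 128 CPM with vehicle and 123, 115 and 126 CPM with TNF-α, narrowly apart, with a log2 fold change of -0.09 ± 0.06. Granulocyte libraries had 125, 134 and 139 CPM with vehicle and 146, 135 and 128 CPM with TNF-α, and the groups overlapped. The granulocyte log2 fold change was 0.02 ± 0.05 (edgeR adjusted p = 0.761) and its sign depended on the processing. After removal of the trends with GC content and gene length, an alternative added after the data had been seen, it was -0.10 with an adjusted p of 0.0486.

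**Figure D2:**
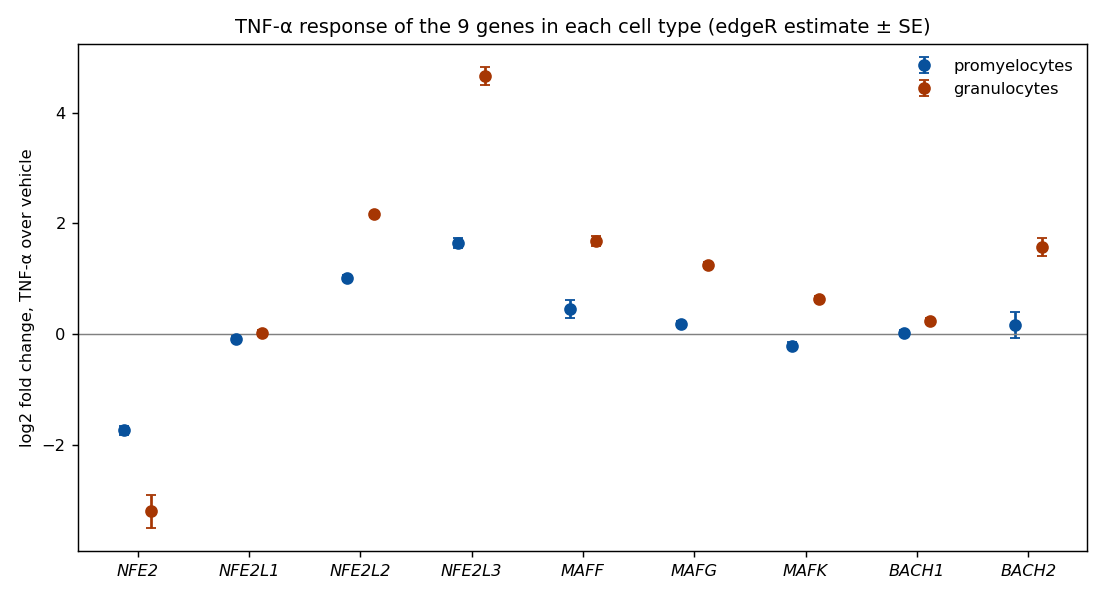
Log2 fold change of TNF-α over vehicle for each of the 9 genes, in promyelocytes (blue) and granulocytes (brown), as edgeR estimates with SE as error bars. The granulocyte estimate lies farther from 0 than the promyelocyte estimate for 8 of the 9 genes, the exception being *NFE2L1*. Among all genes tested, 49.2% were called in granulocytes and 14.8% in promyelocytes, so larger granulocyte responses were not limited to this set. The promyelocyte contrast also led to its choice. *MAFK* lies below 0 in promyelocytes (-0.21) and above 0 in granulocytes (0.63).

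Set against each other per exon length, the 4 activators changed order. FPKM (CPM divided by the exon length in kilobases given in the file) compares genes within a library. In vehicle promyelocytes *NFE2L1* gave 44.6% of the summed activator FPKM, *NFE2* 28.6% ± 1.00 (SD, n = 3) and *NFE2L2* 23.4% ± 0.42. With TNF-α the *NFE2* share in promyelocytes was 7.92% ± 0.24 and the *NFE2L2* share 43.6% ± 1.10. In granulocytes the *NFE2* share was 3.37% ± 0.15 with vehicle and 0.156% ± 0.08 with TNF-α, and the *NFE2L2* share was 37.2% ± 2.03 and 70.2% ± 1.37. *NFE2L1*, with 59.0% of the activator FPKM in vehicle granulocytes, had 25.3% with TNF-α. None of the granulocyte shares overlapped between vehicle and TNF-α, and each exact two-sided permutation test gave p = 0.1, the smallest that 3 against 3 libraries allow.

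The 3 small MAF genes, partners of both activators and repressors, all increased in granulocytes. *MAFG* (ENSG00000197063.10, chr17:81918270-81927714, minus strand) had 71.6, 66.4 and 67.5 CPM in vehicle promyelocytes and 74.3, 73.9 and 80.9 CPM with TNF-α, a log2 fold change of 0.18 ± 0.06. The gap between these groups was narrow. Granulocyte libraries had 73.2, 74.8 and 77.0 CPM with vehicle and 177, 177 and 184 CPM with TNF-α. *MAFG* increased 2.37-fold in granulocytes (log2 fold change 1.24 ± 0.05, edgeR adjusted p = 3.19e-22), wholly above the vehicle libraries, and the cell types differed by 1.10 ± 0.08 on the log2 scale.

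*MAFF* (ENSG00000185022.11, chr22:38200767-38216511, plus strand) had the highest fold of the small MAF genes at the lowest level. Promyelocyte libraries had 2.81, 3.05 and 2.80 CPM with vehicle and 4.02, 4.04 and 3.65 CPM with TNF-α, a log2 fold change of 0.46 ± 0.16. Granulocyte libraries had 8.27, 7.15 and 7.24 CPM with vehicle and 24.7, 22.8 and 25.6 CPM with TNF-α. The granulocyte increase was 3.20-fold (log2 fold change 1.68 ± 0.09, edgeR adjusted p = 1.67e-18), with no overlap, and exceeded that in promyelocytes by 1.26 ± 0.16 on the log2 scale.

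*MAFK* (ENSG00000198517.9, chr7:1530714-1543043, plus strand), the small MAF first isolated as the partner of p45, had groups that lay apart in opposite directions in the cell types. Promyelocyte libraries had 70.9, 68.9 and 60.7 CPM with vehicle and 52.4, 57.8 and 60.3 CPM with TNF-α. The promyelocyte groups were separated only by the gap between 60.7 and 60.3 CPM, and the log2 fold change was -0.21 ± 0.07. Granulocyte libraries had 41.1, 42.5 and 44.1 CPM with vehicle and 70.2, 64.3 and 64.8 CPM with TNF-α, so that TNF-α granulocytes stood near vehicle promyelocytes. *MAFK* increased 1.54-fold in granulocytes (log2 fold change 0.63 ± 0.06, edgeR adjusted p = 7.7e-12).

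The summed small MAF FPKM was 28.6 ± 1.54 (SD, n = 3) in vehicle promyelocytes, 28.1 ± 1.49 in TNF-α promyelocytes, 25.3 ± 0.62 in vehicle granulocytes and 53.6 ± 1.09 in TNF-α granulocytes. The sums overlapped between vehicle and TNF-α in promyelocytes and stood apart in granulocytes (exact two-sided permutation p = 0.1, the smallest possible). *MAFG* supplied 45.9% of the sum in vehicle promyelocytes, 52.1% with TNF-α, 56.9% in vehicle granulocytes and 64.1% in granulocytes with TNF-α. *MAFK* supplied 52.3%, 45.4%, 37.8% and 27.8% in the same groups, and *MAFF* never more than 8.38% in any library.

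The BACH repressors were also higher in TNF-α granulocytes. *BACH1* (ENSG00000156273.15, chr21:29194071-29630751, plus strand) had 113, 109 and 109 CPM in vehicle promyelocytes and 113, 111 and 104 CPM with TNF-α. These groups overlapped, with a log2 fold change of 0.02 ± 0.06. Granulocyte libraries had 207, 208 and 199 CPM with vehicle and 234, 238 and 259 CPM with TNF-α. The granulocyte increase of *BACH1* was the smallest called among the 9 genes, 1.18-fold (log2 fold change 0.24 ± 0.05, edgeR adjusted p = 0.000123), and the cell types differed by 0.26 ± 0.08 on the log2 scale.

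*BACH2* (ENSG00000112182.14, chr6:89926529-90296908, minus strand), a repressor best known in lymphocytes, was among the genes with the lowest levels. Promyelocyte libraries had 1.73, 1.43 and 1.28 CPM with vehicle and 1.81, 1.64 and 1.45 CPM with TNF-α, overlapping, with a log2 fold change of 0.16 ± 0.24. Granulocyte libraries had 2.08, 1.95 and 1.71 CPM with vehicle and 5.38, 5.51 and 6.33 CPM with TNF-α. *BACH2* increased 2.97-fold in granulocytes (log2 fold change 1.57 ± 0.17, edgeR adjusted p = 4.87e-10), and the cell types differed by 1.45 ± 0.27 on the log2 scale. Beside this, the summed CPM of 6 lymphocyte markers, *PAX5* among them, was 13.4 to 16.0 in vehicle granulocytes and 11.9 to 14.1 with TNF-α, and none of the 4 tested there was called.

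The FPKM ratio of *NFE2L2* to *BACH1* was 0.835 ± 0.01 (SD, n = 3) in vehicle promyelocytes and 1.66 ± 0.04 with TNF-α. In granulocytes it was 0.542 ± 0.02 with vehicle and 2.06 ± 0.11 with TNF-α. The ratio thus lay under 1 in all 6 vehicle libraries and over 1 in all 6 TNF-α libraries. Its position relative to 1 depends on the exon lengths used, and part of the *NFE2L2* exon length could not be counted. The granulocyte groups did not overlap, and the exact two-sided permutation p was 0.1, the smallest possible. RNA ratios do not measure the proteins, whose stability is separately controlled.

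**Figure D3:**
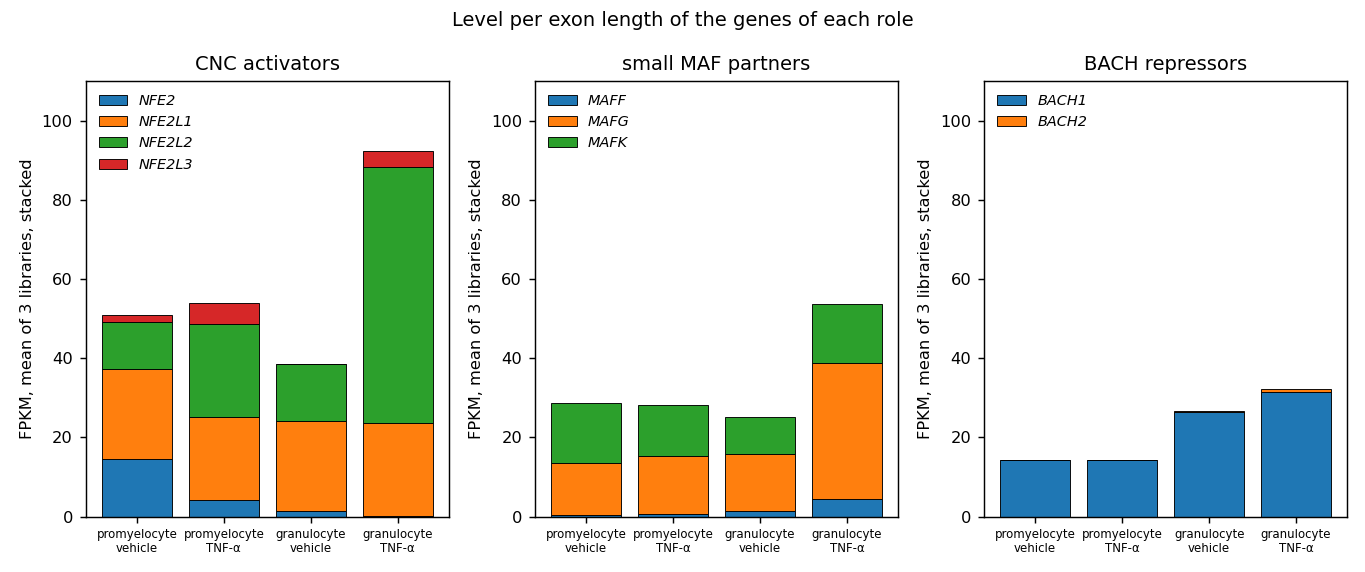
FPKM of the activators (left), small MAF partners (middle) and repressors (right) in the 4 groups, as the mean of 3 libraries per gene, stacked, on one vertical scale that starts at 0. *NFE2L2* forms 64.8 FPKM of the activator column in TNF-α granulocytes, and *NFE2* shrinks from 14.5 FPKM in vehicle promyelocytes to 0.145 FPKM there.

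By FPKM the order of the 9 genes differed between groups. In vehicle promyelocytes *NFE2L1* was highest (22.7 ± 0.89, SD, n = 3). *MAFK* (15), *NFE2* (14.5) and *BACH1* (14.3) followed, each overlapping its neighbor, then *MAFG* (13.1), *NFE2L2* (11.9), *NFE2L3* (1.72), *MAFF* (0.514) and *BACH2* (0.151). With TNF-α *NFE2L2* (23.6 ± 0.52) led in promyelocytes, ahead of *NFE2L1* (20.9), and *NFE2* stood seventh at 4.28. Vehicle granulocytes were led by *BACH1* (26.5 ± 0.63) and *NFE2L1* (22.8), *MAFG* and *NFE2L2* overlapped at 14.4, and *BACH2* (0.196) and *NFE2L3* (0.155) overlapped at the bottom. In TNF-α granulocytes *NFE2L2* (64.8 ± 0.39) led, before *MAFG* (34.4) and *BACH1* (31.6), and *NFE2* was last at 0.145. The 9 genes summed to 93.9 FPKM in vehicle promyelocytes, 96.4 with TNF-α, 90.6 in vehicle granulocytes and 178 in TNF-α granulocytes.

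RefSeq promoter windows (GRCh38.p14, 250 bases before to 50 after a start) were given for 7 of the 9 genes, 12 windows in all, and not for *NFE2* and *MAFK*. They were searched on both strands for the ARE core TGACNNNGC, for the AP-1 site TGANTCA and for the NF-κB consensus. An ARE core and an AP-1 site can share their first bases. Of the 12 windows, 4 held a match to any motif, and the motifs occur singly in 13.3%, 7.71% and 5.91% of all 35116 windows. Whether these shares differ was not tested. *NFE2L3*, the gene with the highest granulocyte fold, and *BACH1*, the gene with the smallest called one, are shown for contrast as the 250 bases before the start, plus strand, with the match in capitals, an NF-κB consensus on the opposite strand at position -91 and an AP-1 site at position -48 (positions count back from the start). They cover chr7:26151948-26152197 and chr21:29298672-29298921.
NFE2L3: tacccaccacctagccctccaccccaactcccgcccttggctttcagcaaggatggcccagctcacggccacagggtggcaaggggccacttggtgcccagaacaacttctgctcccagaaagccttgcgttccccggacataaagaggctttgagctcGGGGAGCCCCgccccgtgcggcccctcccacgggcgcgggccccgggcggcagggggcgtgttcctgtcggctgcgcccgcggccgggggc
BACH1: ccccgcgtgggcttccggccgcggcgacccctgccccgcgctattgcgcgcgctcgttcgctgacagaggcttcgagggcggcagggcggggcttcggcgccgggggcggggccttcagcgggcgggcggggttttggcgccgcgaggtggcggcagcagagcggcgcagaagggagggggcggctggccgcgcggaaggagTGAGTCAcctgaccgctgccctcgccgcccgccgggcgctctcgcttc
*MAFF* had an NF-κB consensus match on the opposite strand at position -102 of one window, ggagtttccc as read on the gene's strand, and an ARE core on the opposite strand at position -122 of the other. No window of *NFE2L1*, *NFE2L2*, *MAFG* or *BACH2* held any of the 3 motifs. A match is a description of the letters and not of binding.

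Genes that NRF2 is known to activate increased together in granulocytes. Of 28 listed NRF2 target genes, 24 were tested there, 18 increased and 1 decreased, with a median log2 fold change of 0.64 against -0.0047 over all genes tested, of which 24.4% increased. *OSGIN1*, an oxidative stress-induced growth inhibitor, had 4.15, 3.74 and 3.79 CPM with vehicle and 90.8, 77.7 and 73.9 CPM with TNF-α (log2 fold change 4.36 ± 0.09, edgeR adjusted p = 4.81e-32). *ME1*, the cytosolic malic enzyme that makes NADPH, had 11.2, 12.9 and 11.4 CPM with vehicle and 86.7, 90.2 and 98.3 CPM with TNF-α (2.93 ± 0.07, adjusted p = 9.94e-30). Neither gene's groups came near to overlapping. *GCLM*, the modifier subunit of the enzyme that starts glutathione synthesis, increased from between 16.8 and 18 CPM to between 55.3 and 69.8 CPM (1.83 ± 0.07, adjusted p = 2.2e-22). Its catalytic partner *GCLC* had a log2 fold change of -0.02 ± 0.06 (adjusted p = 0.803).

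*FTH1*, the ferritin heavy chain, which has many processed copies in the genome that could take or give reads, increased from between 202 and 232 CPM to between 646 and 708 CPM (1.63 ± 0.05, edgeR adjusted p = 9.71e-25). *NQO1*, a quinone reductase and a classical NRF2 target, increased by 1.45 ± 0.07 on the log2 scale (adjusted p = 4.39e-19) and the heme oxygenase gene *HMOX1* by 1.84 ± 0.34 (adjusted p = 2.25e-05), the latter from under 1 CPM. The 1 decrease was *ABCC1*, an efflux transporter (-0.15 ± 0.05, adjusted p = 0.0135), whose groups overlapped and whose call was lost without the second or the third library of either group, leaving 0 decreases. *NQO1*, *GCLC*, *HMOX1* and *ABCC1* were named after their values were seen.

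In promyelocytes, of 23 genes of the list tested, 2 increased and 2 decreased, close to the 8.15% and 6.65% of all genes, with a median log2 fold change of -0.10 against -0.0094 over all genes tested. *SLC7A11*, the cystine transporter, had 23.0, 22.4 and 24.8 CPM with vehicle and 51.6, 48.7 and 42.7 CPM with TNF-α (1.05 ± 0.08, edgeR adjusted p = 4.73e-09), and *ME1* increased by 0.26 ± 0.07 (adjusted p = 0.0128). *TKT*, which encodes transketolase, was among the decreases (-0.22 ± 0.06, adjusted p = 0.0261). Its call was lost with the replicate number as a block (adjusted p = 0.0808), which left 0 decreases in the list, and without the first or second vehicle or the first or second TNF-α library (adjusted p = 0.0873 to 0.13). That of *ME1* was lost without the second vehicle (0.0827) or the first TNF-α library (0.0669). The difference between the responses was called for 17 of 25 genes, 16 higher in granulocytes and 1, *SLC7A11*, lower (-0.53 ± 0.09, adjusted p = 7.36e-05), against 14.1% and 9.88% of all 18124 genes tested in that comparison.

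**Figure D4:**
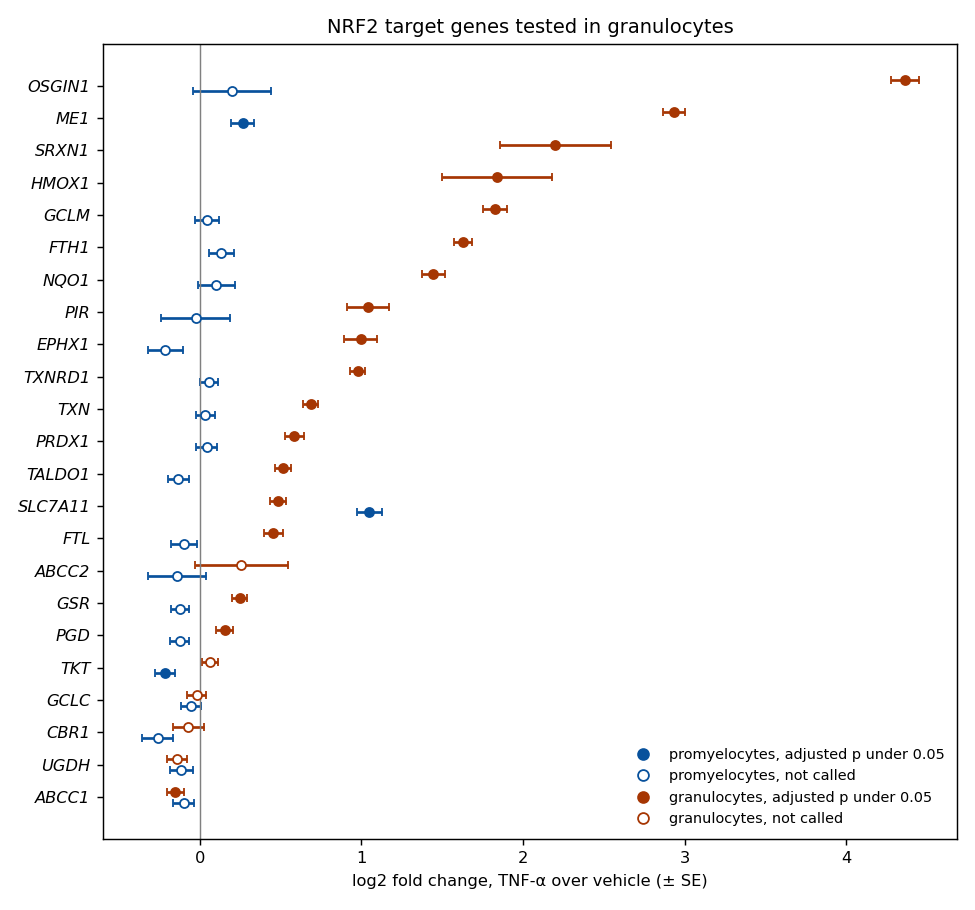
Log2 fold change of TNF-α over vehicle for 23 of the 24 NRF2 target genes tested in granulocytes, ordered by the granulocyte value, with promyelocyte values in blue and granulocyte values in brown, SE as error bars and filled points where the edgeR adjusted p was under 0.05. The granulocyte points run from -0.15 (*ABCC1*) to 4.36 (*OSGIN1*), and the promyelocyte points lie between -0.26 and 0.26 except for *SLC7A11* at 1.05.

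Among 13 listed regulators of CNC and BACH protein levels, 3 increased and 7 decreased in granulocytes, with a median log2 fold change of -0.14, where 24.4% of all genes increased and 24.8% decreased. *SQSTM1*, the autophagy receptor p62 that captures KEAP1, had 81.2, 75.1 and 82.0 CPM with vehicle and 462, 432 and 417 CPM with TNF-α (2.45 ± 0.05, edgeR adjusted p = 1.08e-30). *KEAP1* itself, the adaptor that marks NRF2 for degradation, increased from between 51.0 and 53.0 CPM to between 86.6 and 92.0 CPM (0.76 ± 0.05, adjusted p = 5.78e-15). The ubiquitin ligase genes *SYVN1* (-0.33 ± 0.06, adjusted p = 2.27e-05) and *BTRC* (-0.31 ± 0.07, adjusted p = 0.000124), which act on NRF1 and NRF2 proteins, decreased. In promyelocytes 12 were tested, and *SQSTM1* alone increased (0.72 ± 0.07, adjusted p = 3.14e-07). *SYVN1* decreased there (-0.23 ± 0.07, adjusted p = 0.0422), although its groups overlapped and the count was 0 without the first or second library of either group.

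Genes of heme synthesis and breakdown, the pathway tied to BACH1 release, were called about as often as all genes. *ALAS1*, which makes the enzyme of the first and rate-limiting step outside erythroid cells, increased in both cell types. It went from between 50.4 and 53.7 CPM to between 125 and 133 CPM in promyelocytes (1.32 ± 0.06, edgeR adjusted p = 1.34e-12) and from between 87.6 and 94.8 CPM to between 292 and 316 CPM in granulocytes (1.74 ± 0.05, adjusted p = 1.78e-26). The heme exporter gene *FLVCR1* increased in both (0.27 ± 0.06 and 0.66 ± 0.07, adjusted p = 0.00353 and 3.13e-10), and the heme transporter gene *SLC48A1* increased in granulocytes (0.77 ± 0.11, adjusted p = 3.85e-07). In all, 4 of 13 genes tested increased and 3 decreased in granulocytes (median -0.02), against 24.4% and 24.8% of all genes, and 2 of 12 increased and 1 decreased in promyelocytes (median -0.13), against 8.15% and 6.65%. The promyelocyte decrease, *ALAD*, an enzyme of the second step (-0.23 ± 0.07, adjusted p = 0.0442), was lost with any single library left out (adjusted p = 0.0545 to 0.188). In granulocytes *ALAD* was 1 of the 3 decreases (-0.57 ± 0.06, edgeR adjusted p = 9.4e-10). Its mean there was 40.25 CPM with vehicle and 27.43 CPM with TNF-α, with no overlap between the groups.

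Of 31 proteasome subunit genes, known targets of NRF1, 18 increased and 0 decreased in granulocytes (median log2 fold change 0.14), where 24.4% of all genes increased and 24.8% decreased. In promyelocytes 3 increased and 0 decreased (median 0.08), close to the 8.15% of all genes that increased there. *PSMA6* had the highest value in both, from between 13.7 and 17.3 CPM to between 34.8 and 37.2 CPM in granulocytes (1.21 ± 0.08, edgeR adjusted p = 2.65e-16) and 0.35 ± 0.09 in promyelocytes (adjusted p = 0.00912). *PSMD11*, *PSMD4* and *PSMC4*, of the regulatory particle, increased in granulocytes by 0.49, 0.49 and 0.42 on the log2 scale (SE 0.05 each, adjusted p = 1.67e-10, 7.13e-11 and 1.96e-08). In promyelocytes *PSMA1* (0.34 ± 0.08, adjusted p = 0.00644) and *PSMD6* (0.20 ± 0.06, adjusted p = 0.0311) were also called, the latter not with the replicate block (adjusted p = 0.113). The promyelocyte count was 0 without the second vehicle or the second TNF-α library, 1 without the first vehicle library and 8 without the third TNF-α library. The granulocyte count of increased genes was 12 to 19 with single libraries left out and 14 to 20 in the other alternatives.

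The related large MAF genes were nearly silent except for *NRL*, which had a low level. *NRL* alone passed the filter, at 2.90 to 3.71 CPM in vehicle and 2.41 to 3.06 CPM in TNF-α promyelocytes, and was not called in either cell type (edgeR adjusted p = 0.312 and 0.327), and *MAF* and *MAFA* had at most 1 and 14 read pairs in any library. Genes of the erythroid and megakaryocyte lineages, where NF-E2 is best known to act, were mostly at 0. In each group 11 of 18 listed genes were at 0 in all 3 libraries, among them the globin genes *HBA1*, *HBA2* and *HBB* and the platelet gene *PF4*, and none of the 3 tested in promyelocytes or the 2 in granulocytes was called. In promyelocytes *ITGA2B*, a platelet integrin, had a log2 fold change of -0.67 ± 0.25 (edgeR adjusted p = 0.0835), with TNF-α libraries wholly below vehicle libraries, and the erythroid factor gene *KLF1* had -0.60 ± 0.29 (adjusted p = 0.19). *TBXAS1*, thromboxane synthase, which myeloid cells also express, had log2 fold changes of -0.27 ± 0.11 (adjusted p = 0.124) and 0.03 ± 0.06 (adjusted p = 0.692) in promyelocytes and granulocytes. Its TNF-α promyelocyte libraries also lay wholly below vehicle libraries, as did 17.1% of all genes tested there. The difference between its responses was called (0.33 ± 0.11, edgeR interaction adjusted p = 0.029), for 1 of 3 genes of the list tested, against 24% of all genes.

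The genes whose levels most resembled *NFE2* across the 12 libraries, after the mean of each cell type was subtracted, were *QSOX2*, *RETREG2*, *C16orf54*, *NAT8L* and *NCKAP5L*, with Pearson r of 0.987 to 0.991 among 11814 genes. Their log2 fold changes, -0.21 to -0.74 in promyelocytes and -0.39 to -1.20 in granulocytes, were smaller than those of *NFE2*. For *MAFF* the nearest were *SLC1A3*, *ADAM17*, *LRRC8B*, *UBE2G2* and ENSG00000112096, with r of 0.992 to 0.996. These correlations are descriptions over libraries that share their treatment groups.

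Cell type markers were compared beside these results. The promyelocyte marker sum was 6260 to 7140 CPM in TNF-α promyelocytes. There 3 of the 6 markers, *MPO*, *PRTN3* and *CTSG*, decreased (log2 fold changes -0.23 to -0.30), where 6.65% of all genes decreased. All 6 had log2 fold changes below 0, down to -0.59 for *ELANE* (edgeR adjusted p = 0.129), against -1.74 for *NFE2*. TNF-α libraries lay wholly below vehicle libraries for 5 of the 6, against 17.1% of all genes. In TNF-α granulocytes the sum was 2250 to 2460 CPM, the range seen with vehicle. The granulocyte marker sum was 269 to 285 CPM in TNF-α promyelocytes and 5940 to 6330 CPM in TNF-α granulocytes. Of its 9 markers, 2 increased (*NCF1* and *CYBB*) and 1 decreased (*CSF3R*) in promyelocytes, against 8.15% and 6.65% of all genes. In granulocytes 4 increased and 3 decreased (*CD38*, *ITGAM* and *CSF3R*), against 24.4% and 24.8% of all genes. The mean of *NCF1* in granulocytes was 1217 CPM with vehicle and 1950 CPM with TNF-α. Summed monocyte and macrophage markers were 49.1 to 51.2 CPM in vehicle and 30.1 to 33.8 CPM in TNF-α granulocytes and 3.86 to 4.73 and 2.90 to 3.87 CPM in promyelocytes, mostly from *CSF1R*. The part of cell composition in the results was not tested.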

How the data were processed

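RNA of 12 HL-60/S4 libraries was measured by paired-end RNA-seq. The authors aligned the reads with STAR 2.5.3a to hg38, counted read pairs per gene on the reverse strand with featureCounts 1.5.2 (primary alignments, both ends mapped, not chimeric) and deposited raw counts, per the file headers. A column of exon length was used for FPKM. Symbols were matched by Ensembl identifier to 41836 of 58288 genes.

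Promyelocytes and granulocytes (6 libraries each) had separate fits in edgeR 4.0.16 under R 4.3.3 (TMM, filterByExpr with a minimum count of 10 and total of 15, quasi-likelihood test, Benjamini-Hochberg over all genes tested, threshold 0.05). The difference of the responses came from a fit of 12 libraries in 4 groups. Depth was 22829189 to 31895061 read pairs per library, and 3 libraries per group limit the precision. Groups came from the sample titles. The procedure was run on simulated counts with far fewer changed genes than were called here, so its error rate in these data was not measured. Libraries of a group differed by 3.59 to 14.1 times the counting variance.

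The members and gene lists were chosen with earlier results of these data known. Named were all 9 genes and, from each list (NRF2 targets, regulators, heme, proteasome, large MAF factors) and cell type, the 4 genes with the largest absolute log2 fold change among those called with separated groups and a mean log2 CPM not under 1 (every gene of a list under 7), the 5 genes most correlated with *NFE2* and with *MAFF*, and the treatment check. Other list genes, such as *SYVN1* in promyelocytes, *TBXAS1*, *ITGA2B* and *KLF1*, were named after their values were seen. Some genes counted in the lists are not reported here by name. Alternatives were DESeq2's size factors, no filter, DESeq2 1.42.0, a replicate block, all 12 libraries in 1 fit, leaving out each library and, for levels, no TMM. One alternative, removal of trends with GC content and length, was chosen after seeing the data.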

Additional observations from a re-analysis of the deposited data

Results flagged for a closer look

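*MAFK* was singled out because its TNF-α and vehicle libraries lay apart in opposite directions in the cell types. Its log2 fold change was higher in granulocytes than in promyelocytes by 0.874, and this difference was not tested. With GC and length trends removed the difference was smaller, 0.5609. The log2 fold changes were then -0.1169 in promyelocytes and 0.4402 in granulocytes.

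For 16 of the pathway genes named for the size of their change within a cell type, the difference between the responses itself passed the test (interaction in the edgeR fit of 12 libraries, adjusted p of 0.0164 or lower), given here as the granulocyte minus the promyelocyte log2 fold change. Among NRF2 targets it was 4.21 for *OSGIN1*, 2.71 for *ME1*, 1.82 for *GCLM*, 1.53 for *FTH1*, 0.318 for *TKT* and -0.526 for *SLC7A11*. Among regulators it was 1.77 for *SQSTM1* and 0.984 for *KEAP1*. Among heme genes it was 0.963 for *SLC48A1*, 0.449 for *ALAS1*, 0.433 for *FLVCR1* and -0.302 for *ALAD*. Among proteasome genes it was 0.891 for *PSMA6*, 0.446 for *PSMD4*, 0.41 for *PSMD11* and 0.319 for *PSMC4*. Of all 18124 genes tested for such a difference, 24% were called. Most of the named genes were picked for large changes in these same libraries, which favors a difference, so the 2 are not a like comparison. The difference was not called for *SYVN1*, *BTRC*, *PSMA1*, *PSMD6* and *NRL* (edgeR interaction adjusted p = 0.694, 0.0836, 0.368, 0.637 and 0.126). Groups of 3 libraries were not tested for outlying samples.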

How the results depend on the processing

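Calls of the 9 genes in granulocytes held in every alternative run except for *NFE2L1*. Its log2 fold change was -0.09854 with GC and length trends removed, so that 2 of the 9 genes then decreased, and -0.02518 to 0.07168 with single libraries left out (-0.02236 without the first vehicle and -0.02518 without the first TNF-α granulocyte library). The cause was not tested. The *NFE2* difference between cell types ranged from -1.952 to -1.123 over libraries left out, and its vehicle granulocyte level was 3.375 CPM without TMM. Differences of other genes also moved. With GC and length trends removed they were 1.004 for *MAFF*, 0.8904 for *MAFG*, 0.5609 for *MAFK* and 0.3426 for *BACH1*. That of *NFE2L1* was then -0.06124, against 0.1533 in the main fit. Without a filter they were 1.107 for *NFE2L2*, 1.016 for *MAFG* and 0.1781 for *BACH1*.

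Low counts of pathway genes depended on the setting. In promyelocytes, decreased NRF2 targets numbered 0 with the replicate block, and increased ones 1 with GC and length trends removed. Decreased regulators numbered 0 with DESeq2 or the replicate block, 2 with all 12 libraries in 1 fit and 3 with GC and length trends removed. Decreased heme genes numbered 0 without a filter, with DESeq2, with the replicate block and with GC and length trends removed. In granulocytes, decreased NRF2 targets numbered 0 with the replicate block or all 12 libraries and 2 with GC and length trends removed, which also gave 1 decreased proteasome gene. With single libraries left out, promyelocytes had 1 to 2 increased and 0 to 3 decreased NRF2 targets, 0 to 2 decreased regulators, 0 decreased heme genes (lowest and highest 0) and 0 to 8 increased proteasome genes, and granulocytes had 0 to 2 decreased NRF2 targets. Increased NRF2 targets in granulocytes numbered 17 to 18 throughout.

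Same-numbered libraries did not deviate together (r of -0.153 to -0.0482 in promyelocytes and -0.0701 to -0.012 in granulocytes). Deviations from the mean of so few libraries per group cannot exclude that the numbers pair samples. The block turned no call of the 9 genes. Genes near the floor, such as *NFE2* in TNF-α granulocytes, are limited by depth.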
